A study of Mus musculus with 15 samples.

Results

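The genes described here are 39 mouse genes of the cell cycle and of DNA replication, out of the 55471 gene IDs counted in each library. They were chosen by symbol, through the Ensembl IDs of the count tables and the GENCODE M21 annotation. All 39 were found once. They fall into 15 replication genes, 13 regulators of the step from G1 into S phase and 11 genes of mitosis.

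In the cell cycle, a cell copies its DNA in S phase and divides in M phase. D-type cyclins with Cdk4 or Cdk6, and then E-type cyclins with Cdk2, phosphorylate the Rb protein and release E2F factors, which turn on the genes of replication, while inhibitors of the Cip/Kip and Ink4 families hold these kinases back. Origins are then licensed by the origin recognition complex, Cdc6 and Cdt1, which load the MCM helicase, and later cyclin B with Cdk1, the Aurora and Polo kinases and the spindle checkpoint take the cell through mitosis. Mouse embryonic stem cells (mESCs) are known for a short G1 phase, with high cyclin E activity, and G1 lengthens as they differentiate. The lengths of cell cycle phases were not measured here.

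Poly(A) RNA was measured in 15 libraries of the E14 mESC line, in 5 groups of 3. The first group held embryoid bodies (EBs, suspended aggregates in which stem cells differentiate) of an NSD1-dTAG knock-in line, grown for 6 days with 500 nM dTAG-13, and the second held EBs of the same line grown for 6 days without it. The other groups were nontreated NSD1-dTAG mESCs, wild-type (WT) mESCs given 500 nM dTAG-13 for 72 h, and nontreated WT mESCs. All mESCs grew in medium with LIF and inhibitors of MEK and GSK3, and EBs in medium with serum and without these. NSD1 is a histone methyltransferase, and dTAG-13 is a degrader that recruits a ubiquitin ligase to a protein with an FKBP12-derived tag, so that the tagged protein is broken down. The labels name 1 knock-in genotype and call the replicates biological, with no more on how they were grown, so each p-value rests on how far such samples spread, which may be technical. WT EBs were not analysed here, nor were knock-in mESCs given dTAG-13, so an effect of dTAG-13 in EBs has no untagged EB control.

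The gene counts of a library summed to between 18704591 and 29103958. The 39 genes took up 0.786% to 0.861% of the gene counts in dTAG-13 EBs, 0.895% to 0.956% in nontreated EBs and 1.03% to 1.07% in the 9 mESC libraries. One library of each group stood apart from the other 2, namely dTAG-13 EB 3, nontreated EB 3, NSD1-dTAG mESC 1, WT dTAG-13 3 and WT nontreated 1. Their read-weighted mean exon length was 4.99 to 5.50 kb, against 5.71 to 5.93 kb in the other 10 libraries. Nsd1 mRNA, which does not report on a degraded protein, was at 309, 288 and 219 CPM (counts scaled to library size with TMM factors) in dTAG-13 EBs, 250, 229 and 200 CPM in nontreated EBs and 182 to 405 CPM in mESCs, and no comparison called it. Of the 39 genes, 14 overlap exons of another annotated gene, and the strand that was counted is not stated, so values of such genes may hold reads of their partner.

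E2F sites and the cell cycle homology region (CHR) are the promoter words best known for S phase and mitosis genes, and they were spread unequally over the role groups. RefSeq promoter windows (GRCm38.p6, 250 bases before the RefSeq start to 50 after it) matched 33 of the 39 genes. RefSeq and GENCODE M21 starts can differ. All windows of Cdc6, Mcm7, Cdk6 and E2f1 lie inside their GENCODE M21 genes, after the first annotated start. The E2F words searched on both strands were TTTCCCGC, TTTCGCGC, TTTGCCGC and TTTGGCGC. At least 1 of them stood in 7 of 14 replication genes, 3 of 10 G1/S regulators and 1 of 9 mitosis genes, against 2.6% of 27025 genes with a promoter window. The CHR words TTTGAA and TTCGAA stood in 2 of 14 replication genes, 1 of 10 G1/S regulators and 8 of 9 mitosis genes, against 21.7% of all genes. The word CCAAT, also read on both strands, stood in all 9 mitosis genes, 10 of 14 replication genes and 5 of 10 G1/S regulators, against 41.1% of all genes. Words of different motifs (E2F, CHR or CCAAT) overlapped in 1 window, that of Mcm7, and E2F words overlap each other in the windows of Mcm5 and Mcm6. A match describes the letters of the window only, and base composition was not adjusted for.

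Promoters of 3 replication genes are shown with their E2F words in capitals, because they hold the word singly (Cdc6) and in clusters (Mcm5, Mcm6). They lie at chr11:98907901-98908200 on the plus strand, chr8:75109259-75109558 on the plus strand and chr1:128359656-128359955 on the minus strand, each read 5′ to 3′ along its gene. In GENCODE M21 the Cdc6 gene starts at 98907801, before its window.
Cdc6: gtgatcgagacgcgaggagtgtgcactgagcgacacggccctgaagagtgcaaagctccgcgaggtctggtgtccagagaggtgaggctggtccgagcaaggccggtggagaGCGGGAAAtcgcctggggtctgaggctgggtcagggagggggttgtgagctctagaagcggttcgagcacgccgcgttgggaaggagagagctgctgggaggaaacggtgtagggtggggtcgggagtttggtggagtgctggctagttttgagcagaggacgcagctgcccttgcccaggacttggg
Mcm5: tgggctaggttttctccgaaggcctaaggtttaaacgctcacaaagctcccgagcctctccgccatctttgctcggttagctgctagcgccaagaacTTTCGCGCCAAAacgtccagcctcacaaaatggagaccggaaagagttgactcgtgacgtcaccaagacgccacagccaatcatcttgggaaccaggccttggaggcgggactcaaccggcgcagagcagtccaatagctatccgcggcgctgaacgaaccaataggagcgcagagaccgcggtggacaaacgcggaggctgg
Mcm6: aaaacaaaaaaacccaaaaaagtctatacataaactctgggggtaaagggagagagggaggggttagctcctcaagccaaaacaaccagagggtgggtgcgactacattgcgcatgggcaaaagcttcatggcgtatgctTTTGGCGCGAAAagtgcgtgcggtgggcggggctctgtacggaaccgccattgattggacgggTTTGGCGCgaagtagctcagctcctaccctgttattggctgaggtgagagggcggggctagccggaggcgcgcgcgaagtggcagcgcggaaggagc
Promoters of 3 mitosis genes are shown with their CHR words in capitals, because Bub1 rose in EBs and Ccnb2 and Plk1 were not called there. They are those of Bub1 at chr2:127831810-127832109 on the minus strand, Ccnb2 at chr9:70421505-70421804 on the minus strand and Plk1 at chr7:122159185-122159484 on the plus strand.
Bub1: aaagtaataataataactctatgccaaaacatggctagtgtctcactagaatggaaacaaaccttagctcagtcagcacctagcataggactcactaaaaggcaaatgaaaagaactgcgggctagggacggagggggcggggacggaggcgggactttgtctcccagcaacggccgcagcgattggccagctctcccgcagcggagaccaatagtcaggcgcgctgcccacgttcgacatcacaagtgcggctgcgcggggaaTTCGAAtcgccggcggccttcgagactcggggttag
Ccnb2: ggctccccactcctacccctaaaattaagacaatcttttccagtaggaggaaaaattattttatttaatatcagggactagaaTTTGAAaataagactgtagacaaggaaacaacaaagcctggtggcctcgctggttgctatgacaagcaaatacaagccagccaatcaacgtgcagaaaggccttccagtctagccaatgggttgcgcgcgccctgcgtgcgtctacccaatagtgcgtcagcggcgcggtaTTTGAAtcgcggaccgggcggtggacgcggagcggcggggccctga
Plk1: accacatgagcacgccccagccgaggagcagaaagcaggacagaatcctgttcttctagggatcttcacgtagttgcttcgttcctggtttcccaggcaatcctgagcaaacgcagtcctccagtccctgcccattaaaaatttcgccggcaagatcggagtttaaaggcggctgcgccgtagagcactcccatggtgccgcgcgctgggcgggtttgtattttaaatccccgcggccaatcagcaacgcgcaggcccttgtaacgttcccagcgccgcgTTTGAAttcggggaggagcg
In all 3 of these mitosis windows at least 1 word starts within 50 bases after the start site. Of the replication genes, 6 of 7 with an E2F word and 6 of 7 without one were called lower in nontreated EBs than in NSD1-dTAG mESCs, as described next. Over all genes tested 26.3% were called lower. The median log2 fold changes were -0.47 with an E2F word and -0.58 without. For the CHR words, 0 of 2 replication genes with one and 12 of 12 without one were called lower. With so few genes not called lower, such splits cannot show whether a word goes with the change.

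Counts were tested across all genes with edgeR, and a gene was called changed at a Benjamini-Hochberg adjusted p below 0.05. CPM levels were set by TMM over all 15 libraries. In EBs the 39 genes did not move as a block: most replication genes and the Cdk2, Cdk4 and Cdk6 kinases were lower than in mESCs, 3 of 11 mitosis genes were called, and Ccnd2, Cdkn1b and Bub1 were higher. Between nontreated EBs and nontreated NSD1-dTAG mESCs, 26 of 39 genes were called, 3 higher and 23 lower, against 59.5% of the 15193 genes tested, 33.1% higher and 26.3% lower. The median log2 fold change of the 39 genes was -0.36, and that of all genes tested was 0.02. In such bulk samples, fewer cells of a type and less RNA per cell cannot be told apart. Stage and growth medium also differ together in this comparison and cannot be told apart.

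**Figure D1:**
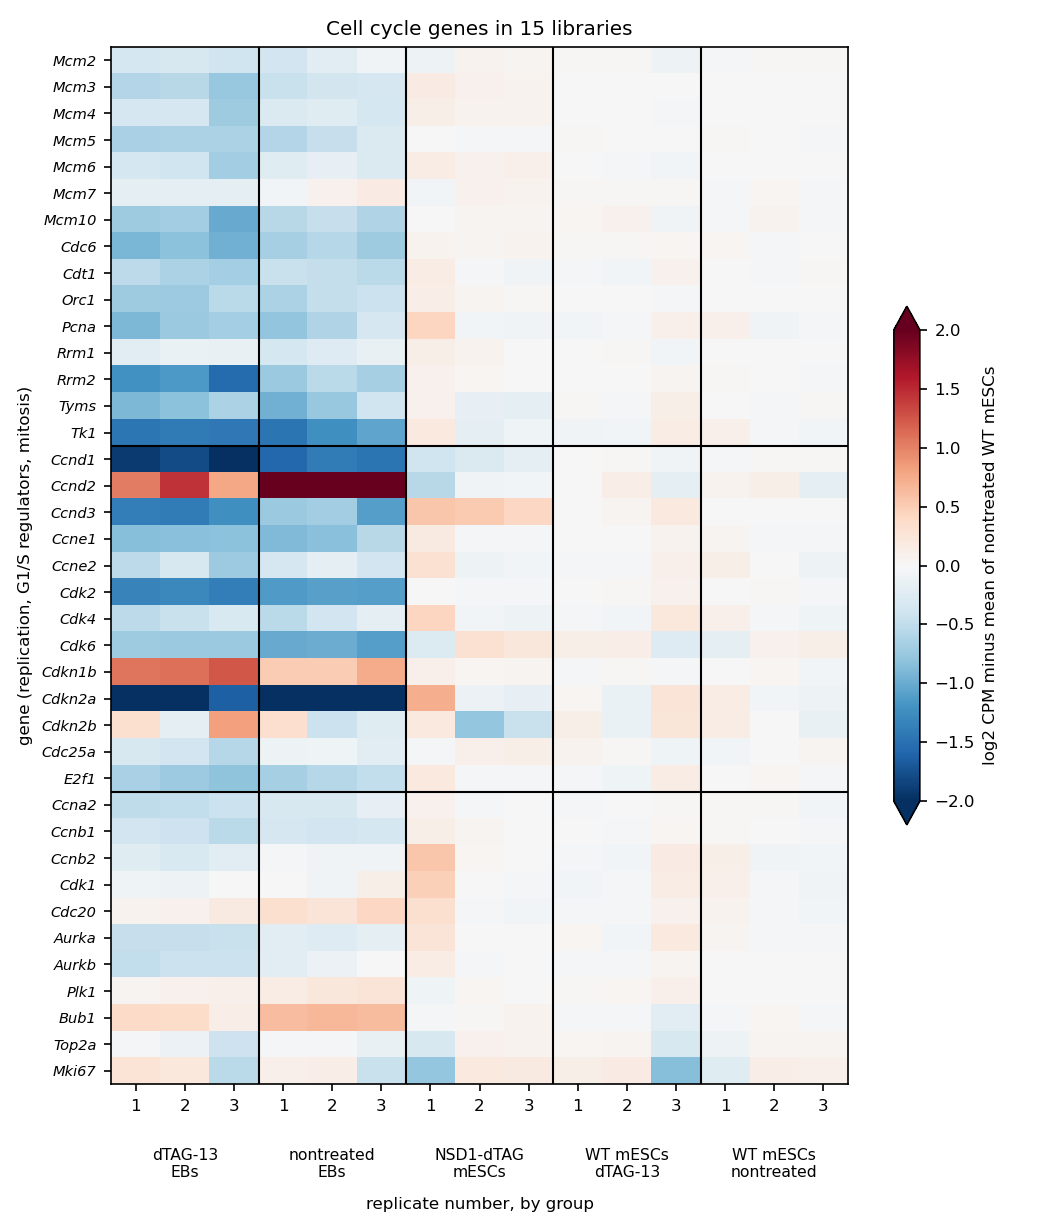
Colour gives the log2 CPM of each of the 39 genes (rows) in each of the 15 libraries (columns, 3 replicates in each of 5 groups) minus the gene's mean over the 3 nontreated WT mESC libraries, with the colour scale ending at -2 and 2. Most replication genes and G1/S regulators are blue in the 6 EB libraries, Ccnd2 and Cdkn1b are red there, and Mki67 is lowest in the library of each group that stood apart.

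Of the 15 replication genes 13 were lower in nontreated EBs and none was higher, with a median log2 fold change of -0.48. The shares over all genes tested were 26.3% lower and 33.1% higher. Among the licensing factors, Cdc6, which helps load the helicase, stood at 77.9, 83.5 and 75.3 CPM in nontreated EBs, against 130, 129 and 130 CPM in NSD1-dTAG mESCs. Every EB library was below every mESC library, a log2 fold change of -0.70 ± 0.10 (SE, adjusted p = 3.91e-04). Orc1, the largest subunit of the origin recognition complex, changed by -0.56 (adjusted p = 0.00174), and Cdt1, the partner of Cdc6 in loading, by -0.48 (adjusted p = 0.00405). Mcm10, which activates the loaded helicase, was at 155, 164 and 150 CPM in nontreated EBs and 228, 237 and 237 CPM in NSD1-dTAG mESCs, again without overlap (-0.56, adjusted p = 0.00133).

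The 6 subunits of the MCM helicase differed in their calls. Mcm3 fell by 0.47, Mcm5 by 0.39, Mcm4 by 0.36 and Mcm6 by 0.33 on the log2 scale (adjusted p from 0.00378 to 0.0218). Mcm2 was at -0.21 (adjusted p = 0.168) and Mcm7 at 0.05 (adjusted p = 0.701), neither called. Mcm2 was called without the libraries that stood apart (-0.36, adjusted p = 7.92e-04), with the exon-length offset (-0.45), in the fit over all groups (-0.23) and without NSD1-dTAG mESC 1 (-0.30). Mcm7 had 529, 578 and 612 CPM in nontreated EBs, against 527, 581 and 572 CPM in NSD1-dTAG mESCs, so that its libraries overlapped while those of Mcm3 to Mcm6 did not. Per kilobase of exon, Mcm7 made up 19.3% ± 0.531 (SD, n = 3) of the summed level of the 6 subunits in nontreated EBs and 15.1% ± 0.807 in NSD1-dTAG mESCs, and Mcm3 made up 20.5% ± 0.183 and 23.1% ± 0.675. Mcm7 overlaps Cops6 and Ap4m1 on the opposite strand, which changed by -0.49 and -1.37 in the same comparison. Without nontreated EB 1 or EB 2, Mcm5 lost its call (adjusted p of 0.0714 and 0.0678). Mcm6 lost its call when any of nontreated EB 1 to 3 or NSD1-dTAG mESC 2 or 3 was left out (adjusted p from 0.0533 to 0.0726).

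The enzymes that supply and carry out DNA synthesis were lower too. Tk1, the thymidine kinase that salvages thymidine, was at 26.8, 31.7 and 35.7 CPM in nontreated EBs, against 84.4, 65.5 and 69.6 CPM in NSD1-dTAG mESCs. That gap, -1.20 ± 0.15 on the log2 scale (adjusted p = 1.85e-04), was the largest of the replication genes, and every EB library was below every mESC library. Rrm2, the regulated subunit of ribonucleotide reductase, which makes deoxynucleotides, had 277, 322 and 294 CPM in nontreated EBs and 495, 476 and 464 CPM in NSD1-dTAG mESCs (-0.66, adjusted p = 7.74e-04). Rrm1, the large subunit of the same enzyme, fell by only 0.30 (adjusted p = 0.0371), and it lost its call without nontreated EB 1 or 2 or without NSD1-dTAG mESC 2 or 3 (adjusted p from 0.0655 to 0.139). Tyms, thymidylate synthase, fell by 0.58 (adjusted p = 0.0122), and without nontreated EB 2 its adjusted p was 0.052.

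Pcna, the sliding clamp of the replicative polymerases, was at 210, 239 and 287 CPM in nontreated EBs and 491, 349 and 345 CPM in NSD1-dTAG mESCs, a change of -0.67 (adjusted p = 0.0105). Its value is uncertain, because the annotated copy Pcna-ps2 held up to 4370 counts in a library and changed alike (-0.79, adjusted p = 0.0143). Such annotated copies of Tyms, Ccnd3, Ccnb1 and Ccnb2 held at most 17 counts.

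The regulators of the G1/S step held the largest changes in both directions. Of 13 genes, 8 were lower and 2 higher in nontreated EBs than in NSD1-dTAG mESCs, with a median log2 fold change of -0.61. Among all genes tested 26.3% were lower and 33.1% higher. The 3 D-type cyclins, which link growth signals to Cdk4 and Cdk6, went in different directions. Ccnd2 had 22.9, 37.9 and 24.0 CPM in nontreated EBs, against 2.30, 3.24 and 3.27 CPM in NSD1-dTAG mESCs. It was 9.75-fold higher in EBs (log2 3.29 ± 0.26 SE, adjusted p = 1.56e-05), with every EB library far above every mESC library.

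Ccnd1 had 104, 116 and 111 CPM in nontreated EBs, against 232, 253 and 268 CPM in NSD1-dTAG mESCs, and was 2.24-fold lower (log2 -1.16 ± 0.11, adjusted p = 4.19e-05). Ccnd3 had 146, 151 and 114 CPM in nontreated EBs, against 360, 350 and 325 CPM in NSD1-dTAG mESCs, and was 2.48-fold lower (log2 -1.31 ± 0.14, adjusted p = 6.86e-05). In neither gene did the groups overlap. Bysl, which overlaps Ccnd3 on the opposite strand, was at -0.08 (adjusted p = 0.546). The antisense genes Gm43126 and 9330179D12Rik, which overlap Ccnd2, had mean counts that round to 0.

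The level of the 3 D-type cyclins together, in CPM per kilobase of exon, was 28.2 ± 2.52 in dTAG-13 EBs, 42.1 ± 3.53 in nontreated EBs and 92.9 ± 2.01 in NSD1-dTAG mESCs (SD, n = 3 each). It was 94.9 ± 0.991 in dTAG-13 WT mESCs and 93.6 ± 1.66 in nontreated WT mESCs. Ccnd1 gave the largest part in every group, between 55.9% and 69.9% of the sum. Ccnd2 gave 2.73% in dTAG-13 EBs, 7.07% in nontreated EBs and 0.335% to 0.387% in the mESC groups, so even after its rise it remained the least abundant of the 3 per kilobase.

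The kinases of this step were lower in nontreated EBs. Cdk2, the partner of E-type cyclins, had 67.5, 69.9 and 69.5 CPM in nontreated EBs, against 149, 145 and 147 CPM in NSD1-dTAG mESCs. It was 2.10-fold lower with narrow spreads in both groups (log2 -1.07 ± 0.09, adjusted p = 2.68e-05), while Pmel, which overlaps its end on the opposite strand, changed by -3.95. Cdk6, a partner of the D-type cyclins, had 66.6, 67.1 and 61.8 CPM in nontreated EBs, against 110, 164 and 156 CPM in NSD1-dTAG mESCs (log2 -1.12, adjusted p = 5.09e-04). Cdk4, the other such partner and the regulator with the highest level per kilobase in every group, was at -0.46 (adjusted p = 0.0428). That call was lost without nontreated EB 1, nontreated EB 2 or NSD1-dTAG mESC 1 (adjusted p from 0.051 to 0.147).

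Ccne1, the main E-type cyclin here with 87.8% to 90.9% of the summed per-kilobase level of the pair, fell by 0.77 (adjusted p = 8.61e-04). Ccne2 was at -0.34 and missed the threshold (adjusted p = 0.0591). E2f1, an activator of replication genes, fell by 0.61 (adjusted p = 0.00183), and Cdc25a, the phosphatase that activates Cdk2, was at -0.17 (adjusted p = 0.189).

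The inhibitors diverged. Cdkn1b, which encodes the Cip/Kip inhibitor p27, had 58.9, 58.7 and 69.5 CPM in nontreated EBs, against 44.7, 42.4 and 42.9 CPM in NSD1-dTAG mESCs. It was higher in every EB library (log2 0.55 ± 0.11, adjusted p = 0.00295). Cdkn2a had 7.11, 6.45 and 7.06 CPM in nontreated EBs, against 60.4, 34.0 and 32.8 CPM in NSD1-dTAG mESCs. It was 6.06-fold lower (log2 -2.60 ± 0.25, adjusted p = 4.25e-05), and its EB libraries sat close together below a wider mESC range. That width came from NSD1-dTAG mESC 1, a library that stood apart. For Cdkn2a it lay 0.855 above the other libraries of its group on the log2 scale, which raises the fold. The locus encodes the Cdk inhibitor Ink4a and the Mdm2 inhibitor Arf, which counts per gene do not separate. Cdkn2b, which encodes the neighbouring Ink4b, was at 2.69 ± 0.774 CPM in nontreated EBs and 2.33 ± 0.826 CPM in NSD1-dTAG mESCs (SD, n = 3 each) and was not called (0.23, adjusted p = 0.552).

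**Figure D2:**
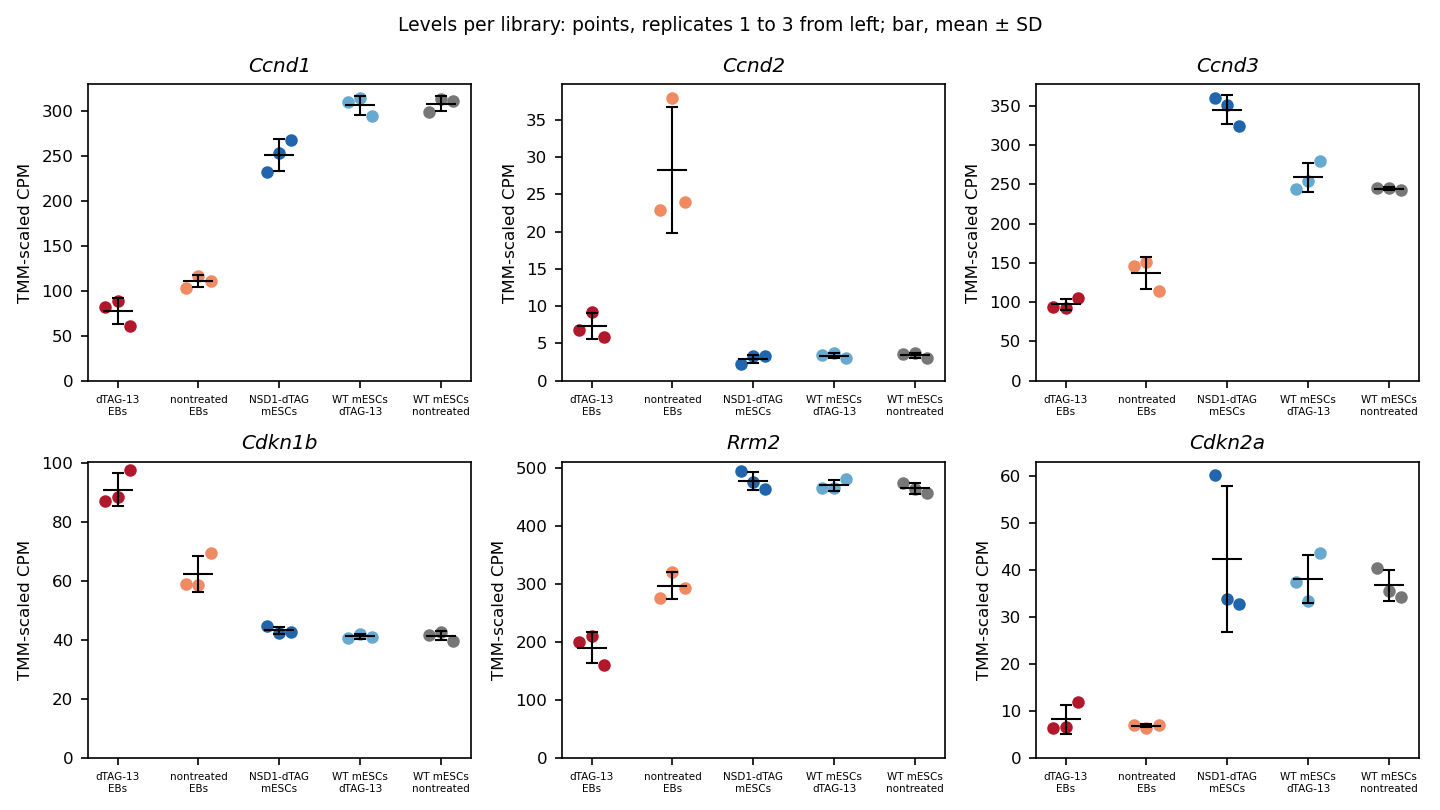
Points are TMM-scaled CPM of 6 genes in each of the 15 libraries, replicates 1 to 3 from left to right within a group, with the mean and SD as bars, on linear axes from 0. Ccnd2 is highest in nontreated EBs, Cdkn1b is highest in dTAG-13 EBs, and Ccnd1, Ccnd3 and Rrm2 are lowest there.

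Fewer mitosis genes were called. Of 11 genes, 2 were lower and 1 higher in nontreated EBs than in NSD1-dTAG mESCs, with a median log2 fold change of -0.13. All genes tested gave 26.3% lower and 33.1% higher. Bub1, a kinase of the spindle checkpoint, had 304, 316 and 309 CPM in nontreated EBs, against 197, 203 and 209 CPM in NSD1-dTAG mESCs. Its groups were far apart and tight (log2 0.63 ± 0.10, adjusted p = 6.27e-04). Ccnb1, the cyclin of Cdk1, fell by 0.39 (adjusted p = 0.00722), and Aurka, a kinase of the spindle poles, by 0.28 (adjusted p = 0.048).

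The call of Aurka was lost when any of nontreated EB 1 to 3 or NSD1-dTAG mESC 2 or 3 was left out (adjusted p from 0.0616 to 0.154). Ccna2, the cyclin of S phase and early mitosis, was at -0.26 (adjusted p = 0.0505), Plk1, the Polo kinase, at 0.25 (adjusted p = 0.058) and Cdc20, which activates the anaphase promoting complex, at 0.26 (adjusted p = 0.109). Cdk1 was at -0.13, Ccnb2 at -0.26, Aurkb of the chromosomal passenger complex at -0.13, Top2a, which untangles chromosomes, at 0.00 and the proliferation marker Mki67 at 0.04, none of them called (adjusted p from 0.176 to 0.993). The count of mitosis genes called was 7 of 11 without the libraries that stood apart, with Ccna2, Cdc20, Aurkb and Plk1 added, against 73.2% of all genes tested. It was 6 of 11 both with the exon-length offset and in the fit over all groups, against 67.9% and 67.1% of all genes tested. The summed level of the 11 genes was 3126 ± 49.3 CPM in nontreated EBs and 3189 ± 96.4 CPM in NSD1-dTAG mESCs (SD, n = 3 each). That of the 15 replication genes was 4394 ± 242 and 5809 ± 140 CPM, and that of the 13 regulators was 1376 ± 70.4 and 2239 ± 163 CPM, in the same order of groups.

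Other genes of the same processes, listed by function, were counted beside them. Of 43 other replication genes 26 were lower and 2 higher in nontreated EBs (median log2 fold change -0.42), of 25 other G1/S genes 9 were lower and 6 higher (-0.23), and of 48 other mitosis genes 11 were lower and 1 higher (-0.15). The shares beside these, over all genes tested, were 26.3% lower and 33.1% higher. The 4 other replication genes with the smallest p-values were Recql4, a helicase needed to start replication, at 18.1 ± 1.33 CPM in nontreated EBs and 45.9 ± 5.39 CPM in NSD1-dTAG mESCs, the fork protection factor Tipin (-1.06), the polymerase epsilon subunit Pole2 (-0.90) and the primase subunit Prim2 (-0.63). Among other G1/S genes, the Cip/Kip inhibitor Cdkn1c had 54.1 ± 0.914 CPM in nontreated EBs and 8.03 ± 1.10 CPM in NSD1-dTAG mESCs, and Rb1, which encodes the Rb protein, had 17.8 ± 3.62 and 3.91 ± 0.729 CPM.

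E2f2, another activating E2F, was 4.24-fold lower in nontreated EBs (log2 -2.09, adjusted p = 3.85e-06). Tfdp1, the dimer partner of E2F factors, fell by 0.87. The mitosis genes with the smallest p-values were Spc24 of the kinetochore (-1.06), the Cdk1 inhibitory kinase Pkmyt1 (-0.64), Fzr1, which activates the anaphase promoting complex (-0.48), and Birc5, a chromosomal passenger (-0.93), all with an adjusted p of at most 0.00531.

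**Figure D3:**
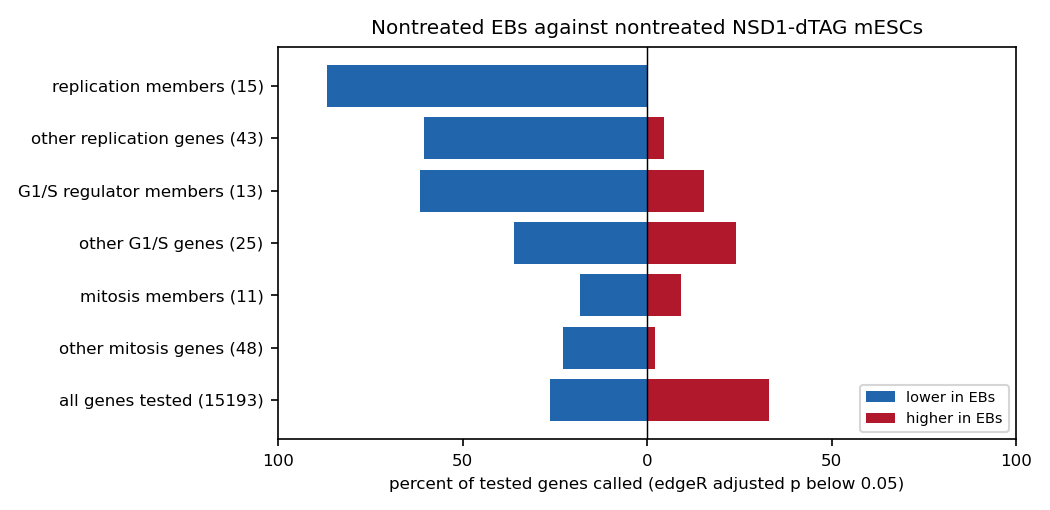
Bars give the percent of the tested genes of each list that were called lower (left, blue) or higher (right, red) in nontreated EBs than in nontreated NSD1-dTAG mESCs (edgeR, adjusted p below 0.05), with the number of genes in brackets. The 15 replication genes reach 86.7% lower and 0% higher, the 11 mitosis genes 18.2% lower, and all genes tested 26.3% lower.

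Cell identity markers moved with this comparison, and their part in the results was not tested. The naive stem cell markers (9 of 10 called lower, 1 higher) summed to 481 to 709 CPM in nontreated EBs and 3557 to 4132 CPM in NSD1-dTAG mESCs, with none at 0. Shared pluripotency markers (3 of 5 called lower, 1 higher) summed to 1779 to 1995 CPM in nontreated EBs and 2708 to 3320 CPM in NSD1-dTAG mESCs. The 8 streak and mesoderm markers, all called higher, summed to 297 to 765 CPM in nontreated EBs and 37.3 to 40.8 CPM in NSD1-dTAG mESCs, where Msgn1 was at 0. The 6 epiblast markers, all called higher, summed to 1144 to 1745 and 125 to 155 CPM. The 9 extraembryonic endoderm markers, all called higher, summed to 304 to 457 CPM in nontreated EBs and 2.15 to 2.38 CPM in NSD1-dTAG mESCs, where Ttr was at 0. Fibroblast markers (4 tested, all called higher) summed to 18.1 to 33.4 CPM in nontreated EBs and 0.490 to 0.613 CPM in NSD1-dTAG mESCs, where Postn, Dcn and Acta2 were at 0. Neural markers (3 of 5 called higher, 1 lower) summed to 195 to 271 CPM in nontreated EBs and 57.0 to 63.6 CPM in NSD1-dTAG mESCs. Endothelial and blood markers (3 of 5 called higher, 1 lower) summed to at most 75.5 CPM in nontreated EBs and to 72.4 to 84.7 CPM in NSD1-dTAG mESCs, and Hbb-bh1, a defining gene of embryonic blood, was at 0 in both groups.

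When dTAG-13 was present during EB formation, Ccnd2, Rrm2 and Ccnd3 were lower and Cdkn1b was higher than in nontreated EBs. These were the 4 of 39 genes called, 1 higher and 3 lower, against 6.76% of the 15236 genes tested, 3.98% higher and 2.78% lower. Of the 39 fold changes 33 were negative, with a median of -0.20 on the log2 scale and -0.01 over all genes tested. The 3 dTAG-13 EB libraries lay wholly below the 3 nontreated ones in 20 of 39 genes and wholly above them in 2. Over all genes tested 12.9% lay wholly below and 14.7% wholly above. On GRCm38, Ccnd2 (ENSMUSG00000000184) spans chr6:127125162-127152193 and Cdkn1b (ENSMUSG00000003031) chr6:134920401-134925513, while Rrm2 (ENSMUSG00000020649) spans chr12:24708241-24714146 and Ccnd3 (ENSMUSG00000034165) chr17:47505051-47599691.

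Ccnd2 had 6.86, 9.27 and 5.81 CPM in dTAG-13 EBs, against 22.9, 37.9 and 24.0 CPM in nontreated EBs. It was 3.87-fold lower with dTAG-13 (log2 -1.95 ± 0.24 SE, adjusted p = 0.00726), every dTAG-13 library lying below every nontreated one and above every mESC library. Within each group, library 2 was the highest in Ccnd2 and also in the summed level of the streak and mesoderm markers. That sum was 53.8, 115 and 27.8 CPM in dTAG-13 EBs and 475, 765 and 297 CPM in nontreated EBs, and 6 of the 8 markers were called lower with dTAG-13. The part of these cells in the change of Ccnd2 was not tested.

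Rrm2 had 200, 211 and 161 CPM in dTAG-13 EBs, against 277, 322 and 294 CPM in nontreated EBs, and was 1.57-fold lower (log2 -0.65 ± 0.12, adjusted p = 0.0215). It was the only replication gene called, and its partner Rrm1 was at 0.08 (adjusted p = 0.701), with overlapping groups. Ccnd3 had 93.6, 92.8 and 105 CPM in dTAG-13 EBs, against 146, 151 and 114 CPM in nontreated EBs. It was 1.41-fold lower (log2 -0.50 ± 0.12, adjusted p = 0.0453), with a narrow gap between the highest dTAG-13 library and the lowest nontreated one. Bysl, its overlapping partner, was at -0.05 (adjusted p = 0.791).

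Cdkn1b had 87.0, 88.6 and 97.6 CPM in dTAG-13 EBs, against 58.9, 58.7 and 69.5 CPM in nontreated EBs. It was 1.46-fold higher (log2 0.54 ± 0.10, adjusted p = 0.0235), without overlap. Of these 4 calls that of Ccnd2 was kept under all 14 alternatives, with log2 fold changes from -2.16 to -1.69. Without nontreated EB 1, nontreated EB 2 or dTAG-13 EB 1, Rrm2 was not called (adjusted p from 0.0582 to 0.101), and without any of these 3 or dTAG-13 EB 2, neither were Ccnd3 (0.138 to 0.188) and Cdkn1b (0.0695 to 0.12).

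Several genes fell short of the threshold with libraries that did not overlap. Ccnd1 had 81.9, 88.9 and 61.0 CPM in dTAG-13 EBs, against 104, 116 and 111 CPM in nontreated EBs (log2 -0.52, adjusted p = 0.0675). Cdk6 had 81.7, 79.4 and 80.0 CPM in dTAG-13 EBs, against 66.6, 67.1 and 61.8 CPM in nontreated EBs (log2 0.30, adjusted p = 0.0609). Bub1 had 261, 257 and 218 CPM in dTAG-13 EBs, against 304, 316 and 309 CPM in nontreated EBs (log2 -0.34, adjusted p = 0.0779). Cdk6 was thus the other gene, beside Cdkn1b, whose dTAG-13 libraries all lay above the nontreated ones, and Ccnd1 and Bub1 were among the 20 that lay below.

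Aurkb had 74.5, 77.5 and 77.6 CPM in dTAG-13 EBs, against 89.6, 96.5 and 104 CPM in nontreated EBs (log2 -0.34, adjusted p = 0.0612). Cdc25a was at -0.29 (adjusted p = 0.108), Aurka at -0.24 (adjusted p = 0.111) and Cdc6 at -0.25 (adjusted p = 0.125). Same-numbered EB libraries of the 2 groups deviated together. The libraries that stood apart share the number 3 here, and libraries 1 and 2 also correlated across numbers (0.208 and 0.084). A fit with the replicate number as a block called 11 of 39 genes, 2 higher and 9 lower, against 12% of all genes tested. Beside the 4 above these were Cdc6, Ccnd1, Cdc25a, Aurka, Aurkb and Bub1, lower (adjusted p from 0.0246 to 0.045), and Cdk6, higher (0.028). Without the libraries that stood apart, dTAG-13 EB 3 and nontreated EB 3, 14 of 39 genes were called, against 20.9% of all genes tested, and the median log2 fold change of the 39 genes was -0.12.

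By role, 7 of 15 replication genes, 5 of 13 regulators and 8 of 11 mitosis genes had all dTAG-13 EB libraries below all nontreated ones. The share over all 15236 genes tested was 12.9%. The medians of the log2 fold changes of the 3 roles were -0.21, -0.15 and -0.19, and no mitosis gene was called. The 6 MCM subunits lay between -0.26 (Mcm7) and -0.14 (Mcm2), and their summed level per kilobase was 579 ± 35.6 in dTAG-13 EBs and 671 ± 31.8 in nontreated EBs (SD, n = 3 each). Cdkn2a at 0.26 (adjusted p = 0.618) and Cdkn2b at 0.45 (adjusted p = 0.46) were not called, and both were highest in dTAG-13 EB 3, one of the libraries that stood apart.

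**Figure D4:**
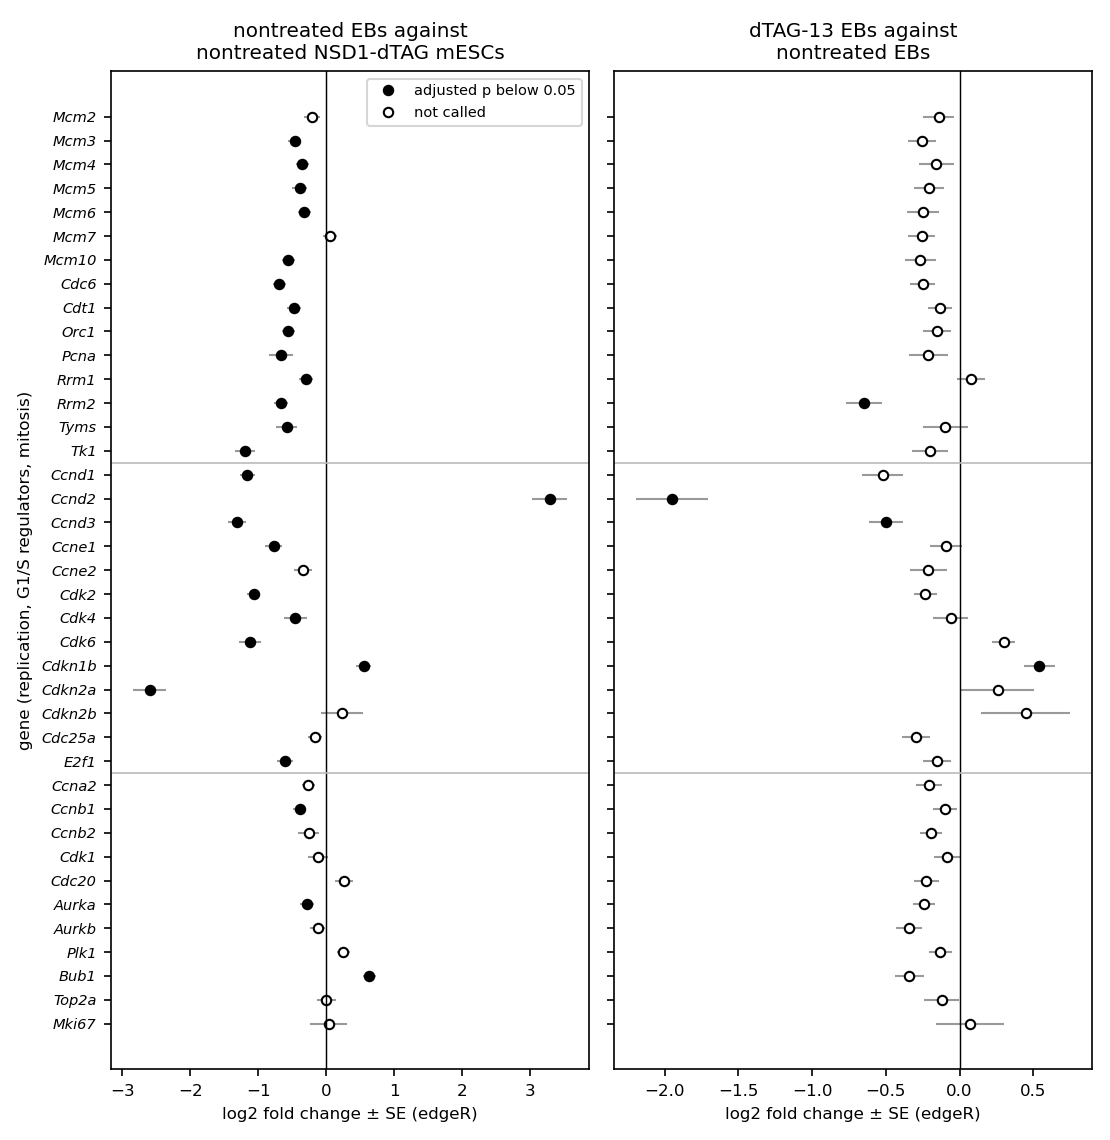
Points are edgeR log2 fold changes with SE of the 39 genes between nontreated EBs and nontreated NSD1-dTAG mESCs (left) and between dTAG-13 and nontreated EBs (right, on a narrower axis), filled where the adjusted p is below 0.05. On the left 23 genes are called lower and 3 higher, and on the right Ccnd2 at -1.95, Rrm2 and Ccnd3 are called lower and Cdkn1b higher.

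Among the other genes of these processes, few were called between dTAG-13 EBs and nontreated EBs. Of 43 other replication genes 1 was called, Lig1, which joins Okazaki fragments, at 236 ± 15.9 CPM in dTAG-13 EBs and 309 ± 6.72 CPM in nontreated EBs (log2 -0.39, adjusted p = 0.0355). Of 25 other G1/S genes 1 was called, Cdkn1c, at 72.6 ± 8.45 CPM in dTAG-13 EBs and 54.1 ± 0.914 CPM in nontreated EBs (log2 0.42, adjusted p = 0.05 after rounding). None of 48 other mitosis genes was called by edgeR, and 6 had an unadjusted p below 0.05, against 3313 of the 15236 genes tested. Over all genes tested 6.76% were called. Markers that moved beside these changes were 4 of 10 naive stem cell markers, called lower, with sums of 365 to 454 CPM in dTAG-13 EBs and 481 to 709 CPM in nontreated EBs. Also called lower were 1 of 5 shared pluripotency markers (Nanog, -0.74), 1 of 5 neural markers (Pax6, -1.44) and 1 of 5 endothelial and blood markers (Cdh5, -1.81). Their lists summed to 1655 to 1753 and 1779 to 1995, 222 to 287 and 195 to 271, and 38.5 to 54.7 and at most 75.5 CPM in dTAG-13 and nontreated EBs. No epiblast, extraembryonic endoderm or fibroblast marker was called, with sums of 1295 to 1964 and 1144 to 1745, 167 to 573 and 304 to 457, and 20.3 to 35.8 and 18.1 to 33.4 CPM in dTAG-13 and nontreated EBs. The part of these markers in the results was not tested.

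In WT mESCs, which carry no tag, 72 h of dTAG-13 left the 39 genes within a narrow range. None of them was called, as was 0% of the 13784 genes tested, and none had an unadjusted p below 0.05, against 229 of all genes. DESeq2 also called none. The log2 fold changes ran from -0.13 (Mki67) to 0.08 (Ccnd3). Rrm2 had 466, 466 and 481 CPM in dTAG-13 WT mESCs and 476, 465 and 457 CPM in nontreated WT mESCs. Ccnd2 was between 2.99 and 3.72 CPM in dTAG-13 WT mESCs and between 2.99 and 3.67 CPM in nontreated WT mESCs.

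The difference between the effect of dTAG-13 in NSD1-dTAG EBs and that in WT mESCs, tested as an interaction, was called for 4 of 39 genes, against 2.88% of the 15855 genes tested. They were Ccnd2 (log2 difference -1.94 ± 0.31 SE, adjusted p = 0.00643), Rrm2 (-0.67 ± 0.13, adjusted p = 0.0195), Ccnd3 (-0.59 ± 0.14, adjusted p = 0.044) and Cdkn1b (0.55 ± 0.12, adjusted p = 0.0305). This test uses the same EB libraries as the comparison within EBs. The 2 arms differ in the tag, in cell state and in the length of treatment, which cannot be told apart. Of the other genes of these processes Lig1 (-0.44, adjusted p = 0.0274) and Myc (-0.70, adjusted p = 0.0257) were called in this test. With the replicate number as a block Ccnd3 was not called (adjusted p = 0.0837, and 0.0699 with the exon-length offset as well). Leaving out single libraries of the 12 ended the call of Ccnd3 and of Cdkn1b in 10 cases each (adjusted p from 0.0715 to 0.123 and 0.0514 to 0.102). It ended the call of Rrm2 without WT nontreated 2 or 3 or nontreated EB 2 (0.0564 to 0.0635) and that of Ccnd2 in none.

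Nontreated NSD1-dTAG mESCs and nontreated WT mESCs differed in Ccnd3. It had 360, 350 and 325 CPM in NSD1-dTAG mESCs, against 246, 245 and 242 CPM in WT mESCs, and was 1.40-fold higher (log2 0.49 ± 0.07 SE, adjusted p = 0.0263), every knock-in library lying above every WT one. This was the only call among 39 genes, against 1.86% of the 13895 genes tested, while Bysl was at -0.01. Ccnd1 had 232, 253 and 268 CPM in NSD1-dTAG mESCs, against 298, 314 and 312 CPM in WT mESCs, lower in each library (log2 -0.30, adjusted p = 0.147). The sum of the D-type cyclins per kilobase was 92.9 ± 2.01 and 93.6 ± 1.66 in these groups (SD, n = 3 each), with Ccnd3 at 42.4% of it in NSD1-dTAG mESCs and 29.8% in WT mESCs.

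Same-numbered libraries of these 2 groups deviated together. The libraries that stood apart share the number 1 here, and libraries 2 and 3 also correlated across numbers (0.353 and 0.325). A fit with the replicate number as a block called Ccnd3 (adjusted p = 0.0122) and, as lower, Ccnd1 (-0.31, adjusted p = 0.0488). That fit called 5.65% of all genes tested. Without any of the 3 WT libraries, NSD1-dTAG mESC 2 or NSD1-dTAG mESC 3, Ccnd3 kept a log2 fold change of 0.48 to 0.53 and lost its call (adjusted p from 0.0817 to 0.182). With library sizes set by the ERCC spike-ins its log2 fold change was 0.37 and no gene of the 39 was called. Of the other G1/S genes Myc, a transcription factor that promotes entry into S phase, was called, at 46.9 ± 4.59 CPM in NSD1-dTAG mESCs and 31.8 ± 1.21 CPM in WT mESCs (log2 0.55, adjusted p = 0.0391). The 15 replication genes lay between -0.10 and 0.11.

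Levels per kilobase gave an order within each group. Among replication genes Mcm3 ranked first in all 5 groups, at 137 CPM per kilobase in nontreated EBs and 193 in NSD1-dTAG mESCs, and Tk1 last, at 6.04 and 14.1. In nontreated EBs the range of Mcm3 overlapped those of Mcm7 and Mcm5 and lay above those of the genes ranked after them. Among the regulators Cdk4 ranked first, at 158 CPM per kilobase in nontreated EBs and 220 in NSD1-dTAG mESCs. Cdkn1b stood at 13.7 in nontreated EBs and 9.51 in NSD1-dTAG mESCs, and Cdkn2a at 5.86 and 36.2, so that these inhibitors changed places. Among mitosis genes Cdc20 (149 and 126) and Top2a (111 and 112) led, and Mki67 was last (27.2 and 26.8), with a range that overlapped that of Aurkb in nontreated EBs. In dTAG-13 EBs Aurkb was last (26.0, with Mki67 at 28.5 and overlapping it).

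The libraries that stood apart shaped single genes of the set. Mki67 had 166 CPM in NSD1-dTAG mESC 1, against 322 and 321 CPM in the other 2 libraries of that group, and it was low in the library that stood apart in all 5 groups, by 0.36 to 1.00 on the log2 scale. Top2a was lower in all 5 (by 0.13 to 0.40), as were Cdk6, Cdc25a, Mcm10 and Bub1. Higher in all 5 were Cdk4, Pcna, Cdkn2a, Ccne1, Ccna2, Cdk1, Cdc20, Aurka and Aurkb. Merged exons of Mki67 and Top2a span 10.1 and 9.01 kb and those of Bub1 4.35 kb, while those of the 9 higher genes span 1.17 kb (Cdkn2a) to 4.93 kb (Cdk1). Rrm1, with 11.0 kb, was between -0.07 and 0.17 in the 5 groups. The part of RNA quality in the results was not tested.

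**Figure D5:**
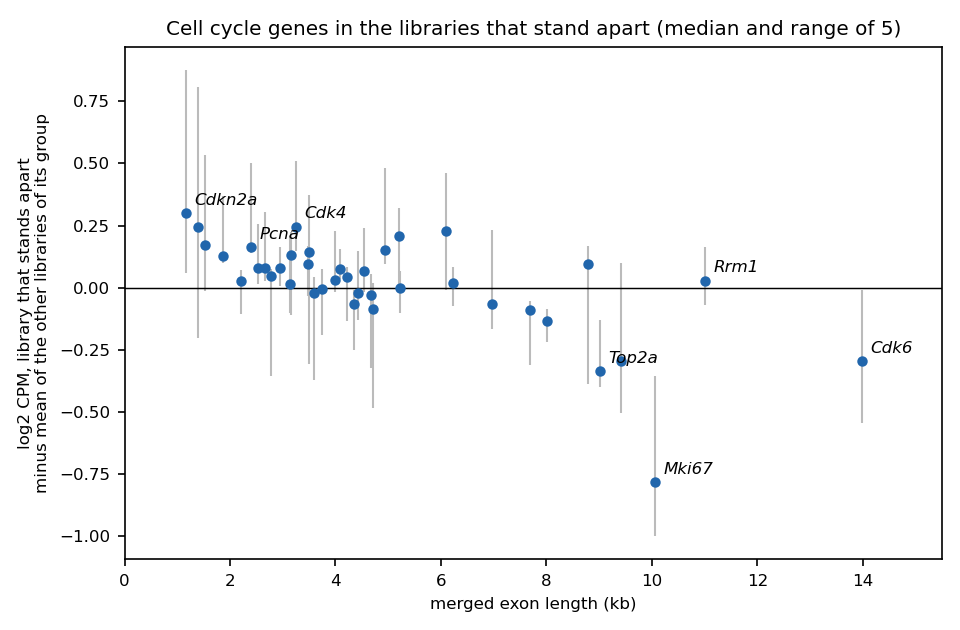
Each point is 1 of the 39 genes, with its merged exon length in kb on the x axis and, on the y axis, the median over 5 groups of its log2 CPM in the library that stood apart minus the mean of the other 2 libraries, and a bar for the range of the 5. Cdkn2a, the shortest, lies highest and Mki67 lies lowest.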

How the data were processed

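Per the labels' protocols, poly(A) RNA with ERCC spike-ins was made into strand-specific libraries. ERCC reads were 0.292% to 0.496% of the counts in mESC libraries and 0% in every EB library. EB and mESC libraries thus differ in spike-in content as well as in stage, which cannot be told apart. ERCC scaling was run only between mESC groups. The authors deposited whole-number counts per gene and library, made on the build GRCm38.p6 with STAR, DESeq2 1.30.0 and bcl2fastq 2.20.0.422 among the tools, per the submitters' processing notes. Neither the annotation release nor the counted strand is given in the sources used here. Of the 55471 gene IDs, 55230 matched GENCODE M21, which supplied names and exon lengths, and the 92 ERCC features were left out of library sizes.

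Each comparison was fitted on its own libraries with edgeR 4.0.16 in R 4.3.3: filterByExpr with a minimum count of 10, TMM factors, the quasi-likelihood F test and Benjamini-Hochberg adjustment over all genes tested, with a threshold of 0.05. The interaction was fitted on 12 libraries. Alternatives were DESeq2 1.42.0 and its size factors, no filter, an exon-length offset (loess span 0.5), ERCC scaling, a replicate block, a fit over all groups and left-out libraries. The steps were tested on simulated data.

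Replicate numbers come from the labels. Deviations of same-numbered libraries from their group means correlated at 0.697, 0.401 and 0.396 between NSD1-dTAG and WT mESCs. Between dTAG-13 and nontreated EBs they correlated at 0.236, 0.311 and 0.377. Differently numbered libraries correlated between -0.611 and 0.353 and between -0.325 and 0.208, in the same order. In both comparisons the libraries that stood apart share a number. These numbers were used as pairs only in the replicate block, and the main fits used the group alone. No replicate pair agreed within sampling noise (chi-square per degree of freedom at least 1.52).

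All 39 genes are named. Of other cell cycle genes, those named are the 4 with the smallest adjusted p among those called, per list and comparison. The rule for the 39 genes uses symbols only, but genes and lists were chosen with earlier results of these data known.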

Additional observations from a re-analysis of the deposited data

Results flagged for a closer look

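The effect of dTAG-13 differed between NSD1-dTAG EBs (6 days) and WT mESCs (72 h) in 4 of the 39 genes, by a test of the difference itself (edgeR interaction term, adjusted p below 0.05). The share called over all 15855 genes tested was 2.88%. For Ccnd2 the log2 fold change was -1.95 in EBs and -0.03 in WT mESCs, a difference of -1.936 (adjusted p = 0.00643). Rrm2 was at -0.65 in EBs and 0.01 in WT mESCs, a difference of -0.6682 (adjusted p = 0.0195). Ccnd3 was at -0.50 and 0.08, a difference of -0.5894 (adjusted p = 0.0440, and 0.0837 with the replicate number as a block), and Cdkn1b at 0.54 and -0.01, a difference of 0.5459 (adjusted p = 0.0305). Leaving out single libraries ended the calls of Ccnd3 and Cdkn1b in 10 cases each and that of Rrm2 in 3, while Ccnd2 kept its call. The tag, the cell state and the length of treatment differ together and cannot be told apart.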

How the results depend on the processing

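No log2 fold change called in any comparison changed sign under the alternatives run. Between dTAG-13 and nontreated EBs the number of the 39 genes called was 4, against 9 with DESeq2, 11 with the replicate block, 11 with the replicate block and an exon-length offset, 12 in the fit over all groups and 14 without the libraries that stood apart. Leaving out single libraries gave 1 to 5. The share called over all genes tested was 6.76% in the main fit. It was 11.1%, 12%, 12.1%, 12.1% and 20.9% under these alternatives in the same order, and 1.17% to 8.27% with a library left out. For the interaction 4 of the 39 genes were called, against 2.88% of all genes tested. DESeq2 called 8 of them (5.04% of all genes), and 14 were called without the libraries that stood apart (11.9%). With a library left out 1 to 4 were called (1.24% to 4.7%). Between NSD1-dTAG and WT mESCs 1 of the 39 genes was called, against 1.86% of all genes tested. The replicate block called 2 without and 2 with the length offset, against 5.65% and 9.93% of all genes. Without the libraries that stood apart 6 were called, against 22.7% of all genes. ERCC scaling gave 0 (0.0072% of all genes), and leaving out a library gave 0 to 2 (0.00711% to 8.89%). Between nontreated EBs and NSD1-dTAG mESCs 26 genes were called, with 20 to 32 under all alternatives. Over all genes tested, the share called there was 59.5%, with 35.7% (no filter) to 73.2% (without the libraries that stood apart) under the alternatives. In WT mESCs 0 of the 39 genes were called under all alternatives. The cause of these differences was not tested.

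Over all genes, the dTAG-13 EB count of 1030 became 1686 with DESeq2, 1834 and 1850 with the block, 1931 in the fit over all groups, 3233 without the libraries that stood apart and 182 to 1293 with a library left out. The interaction count of 456 became 799 with DESeq2, 915 without a filter, 728 with block and length offset, 1897 without the libraries that stood apart and 202 to 763 with a library left out. The knock-in count of 259 became 636 with DESeq2, 609 with the length offset, 785 and 1380 with the block, 500 in the fit over all groups, 3123 without the libraries that stood apart, 1 with ERCC scaling and 1 to 1248 with a library left out. In WT mESCs 16 genes were called without the libraries that stood apart.

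Between nontreated EBs and NSD1-dTAG mESCs same-numbered libraries deviated together in 1 of 3 pairs (correlations of -0.255, 0.191 and -0.356), so the numbers are not read as pairs, and the same held in WT mESCs (-0.411, 0.334 and -0.347). Between nontreated EBs and NSD1-dTAG mESCs a replicate block called 20 of the 39 genes, against 52.6% of all genes tested. In the interaction it called 3 of them, without Ccnd3 (adjusted p = 0.0837). ERCC scaling put the all-gene median at -0.10 on the log2 scale between NSD1-dTAG and WT mESCs, with that of the 39 genes at -0.07. With 3 libraries a group, a change that missed the threshold is not shown to be absent.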
